A study of Mus musculus with 12 samples.

Results

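Cell cycle and DNA replication genes were followed in whole lung tissue of mice exposed to cigarette smoke. The list held 43 genes, 18 of the G1 and S phases (licensing of replication origins, nucleotide synthesis, S phase chromatin, E cyclins) and 25 of G2 and mitosis (mitotic cyclins and kinases, checkpoint, spindle and chromosome proteins). A gene was taken through any probe that carries its platform or current symbol, and the probe had to be detected (detection p below 0.05) on at least 3 of 12 arrays. By that rule 30 of the 43 genes were tested, 15 of G1 and S phase and 15 of G2 and mitosis, among 10541 named genes in all. The brightest such probe stood for a gene, and 27 of the 30 probes were detected on all 12 arrays. The exceptions were Cdca8 and Kif11 with 9 arrays each and Ccne1 with 7.

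Of the other 13 genes, 7 had named probes that missed the filter. These were Ccne2, detected on 2 arrays, and Chek1, Ccna2, Ccnb2, Bub1, Ube2c and Hmmr, detected on 0. The remaining 6, Gins2, Ccnb1, Aurkb, Mki67, Racgap1 and Tacc3, had no named probe and are not analysed here. No value can therefore be given for Mki67 and Ccnb1, common markers of dividing cells.

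All animals were female C57BL/6N mice kept under specific-pathogen-free conditions, and each of the 4 groups had 3 arrays, labelled as biological replicates. The groups were mice treated with cigarette smoke and control mice, each at an age of 4 or of 6 months. The labels give neither the length and dose of the smoke exposure nor how the controls were handled, so age and length of exposure cannot be told apart. RNA of the lung was read on Illumina bead arrays, where a probe's brightness on many beads is its intensity, and all levels below are log2 intensities after background correction and quantile normalization. Markers of lung epithelium were detected on all 12 arrays, among them Sftpc of alveolar type 2 cells, Ager of alveolar type 1 cells and Scgb1a1 of club cells.

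A cell that leaves rest first loads the MCM helicase onto its replication origins, a step called licensing that needs Cdc6 and Cdt1. It then makes nucleotides and copies its DNA in S phase, and later builds the spindle that parts the chromosomes in mitosis. Many genes of the first set are switched on by E2F factors at the border of G1 and S phase. Many of the second are switched on by the MuvB complex with B-MYB and FOXM1, through the promoter element CHR (cell cycle genes homology region). Adult lung is a tissue in which few cells divide at any time, and alveolar macrophages, lymphocytes, endothelium and type 2 cells are among those that can.

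Promoters are shown for the 3 G1 and S phase genes and the 3 G2 and mitosis genes with the smallest p at 6 months that are in the RefSeq promoter table, so that the elements named in the background can be seen in place. Each line gives the 250 bases before the transcription start on the gene's own strand in build GRCm38.p6, and capitals mark the motifs found on either strand. The motifs searched were TTTGGCGC, TTTCGCGC and TTTCCCGC for E2F, TTTGAA and TTCGAA for the CHR element, and CCAAT, the box bound by NF-Y.
Uhrf1: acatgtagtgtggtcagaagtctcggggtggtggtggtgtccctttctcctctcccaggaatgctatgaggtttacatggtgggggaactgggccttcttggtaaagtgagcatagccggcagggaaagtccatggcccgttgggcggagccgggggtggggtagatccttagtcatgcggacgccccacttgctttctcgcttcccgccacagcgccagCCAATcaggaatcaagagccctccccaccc
Tk1: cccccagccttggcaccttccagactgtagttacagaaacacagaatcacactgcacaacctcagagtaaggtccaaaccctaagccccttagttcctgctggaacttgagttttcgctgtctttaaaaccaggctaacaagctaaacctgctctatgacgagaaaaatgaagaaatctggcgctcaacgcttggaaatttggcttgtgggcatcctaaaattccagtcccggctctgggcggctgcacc
Cdc6: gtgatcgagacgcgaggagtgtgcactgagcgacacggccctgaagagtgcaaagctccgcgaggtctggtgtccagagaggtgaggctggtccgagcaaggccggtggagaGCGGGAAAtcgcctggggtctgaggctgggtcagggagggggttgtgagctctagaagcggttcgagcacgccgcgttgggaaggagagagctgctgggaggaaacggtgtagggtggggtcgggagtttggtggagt
Top2a: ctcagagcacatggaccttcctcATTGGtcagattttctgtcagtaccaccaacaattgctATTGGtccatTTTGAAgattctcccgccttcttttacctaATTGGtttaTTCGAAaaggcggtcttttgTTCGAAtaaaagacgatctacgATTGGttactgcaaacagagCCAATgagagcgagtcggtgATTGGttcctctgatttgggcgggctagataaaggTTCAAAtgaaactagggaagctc
Plk1: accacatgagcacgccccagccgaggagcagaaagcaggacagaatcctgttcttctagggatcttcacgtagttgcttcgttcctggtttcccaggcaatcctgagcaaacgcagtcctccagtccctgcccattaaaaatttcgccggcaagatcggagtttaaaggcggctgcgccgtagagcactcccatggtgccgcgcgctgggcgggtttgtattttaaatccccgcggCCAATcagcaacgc
Birc5: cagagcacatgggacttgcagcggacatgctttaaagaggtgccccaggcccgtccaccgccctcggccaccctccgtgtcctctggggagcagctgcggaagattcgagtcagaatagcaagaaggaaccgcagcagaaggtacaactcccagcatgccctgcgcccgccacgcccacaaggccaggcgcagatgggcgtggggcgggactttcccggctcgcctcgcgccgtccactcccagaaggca
The 3 G1 and S phase windows lie at chr17:56303087-56303336 (plus strand, Uhrf1, the first of its 2 entries), chr11:117826015-117826264 (minus strand, Tk1) and chr11:98907901-98908150 (plus strand, Cdc6). Those of the G2 and mitosis genes lie at chr11:99024190-99024439 (minus strand, Top2a), chr7:122159185-122159434 (plus strand, Plk1) and chr11:117848987-117849236 (plus strand, Birc5). The Top2a promoter held 4 CHR matches, the first bases at -179, -140, -120 and -23 from the start, and 6 CCAAT boxes, and none of these overlapped another. Cdc6 had an E2F match on the minus strand at -138, and Uhrf1 and Plk1 each had a CCAAT box, at -30 and -14. Tk1 and Birc5 had none of these letters in the window. The search window ran on to 50 bases past the start, where Plk1 had a CHR match at 31 and Uhrf1 had a pair of overlapping CCAAT boxes, 1 on each strand, across the start.

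The promoter table held 37 of the 43 genes, and Ccna2, Ccne2, Gins2, Mcm4, Aurkb and Stmn1 were not in it. An E2F match stood in 6 of 15 G1 and S phase windows (40.0%), those of Mcm3, Mcm5, Mcm6, Mcm7, Cdc6 and Cdt1. It stood in 1 of 22 windows of G2 and mitosis genes (4.55%), that of Cdk1, against 1.91% of the first windows of all 27025 symbols in the table. A CHR match stood in 18 of 22 windows of G2 and mitosis genes (81.8%) and in 2 of 15 of the G1 and S phase genes (13.3%), against 19.4% of all first windows. CCAAT stood in 19 of 22 (86.4%) and in 9 of 15 (60.0%), against 37.9%. These are matches of letters, and binding was not measured.

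At 6 months, 13 of the 30 tested genes rose in smoke-treated lung and 0 fell by limma's test at an adjusted p below 0.05, while 3.35% of all 10541 genes rose and 1.73% fell. The 13 were spread over both phases, with 6 of 15 genes of G1 and S phase and 7 of 15 of G2 and mitosis. The median log2 change was 0.47 over the 30 genes, 0.46 over the G1 and S phase genes and 0.57 over the G2 and mitosis genes, against -0.02 over all genes tested. The difference was above 0 for 28 of the 30 genes (46.9% of all genes). At an unadjusted p below 0.05, 22 of the 30 were higher and 0 lower, against 9.01% and 8.38% of all genes. In 22 of the 30, all 3 smoke arrays lay above all 3 control arrays (10.7% of all genes), and in 0 all 3 lay below (11.0%). Without smoke replicate 2 or smoke replicate 3 of 6 months 3 of the 30 genes passed. Without control replicate 1 of 6 months 4 passed, and without control replicate 2 or 3 of that age 7 passed. The calls over all 10541 genes, in either direction, fell too. They went from 535 to 317 without smoke replicate 2 and to 273 without smoke replicate 3. Without control replicate 1 they went to 347, and without control replicate 2 to 416. The median of the 30 genes stayed between 0.42 and 0.52 when any 1 array was left out. In whole tissue, more dividing cells and more RNA of these genes per cell cannot be told apart.

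**Figure D1:**
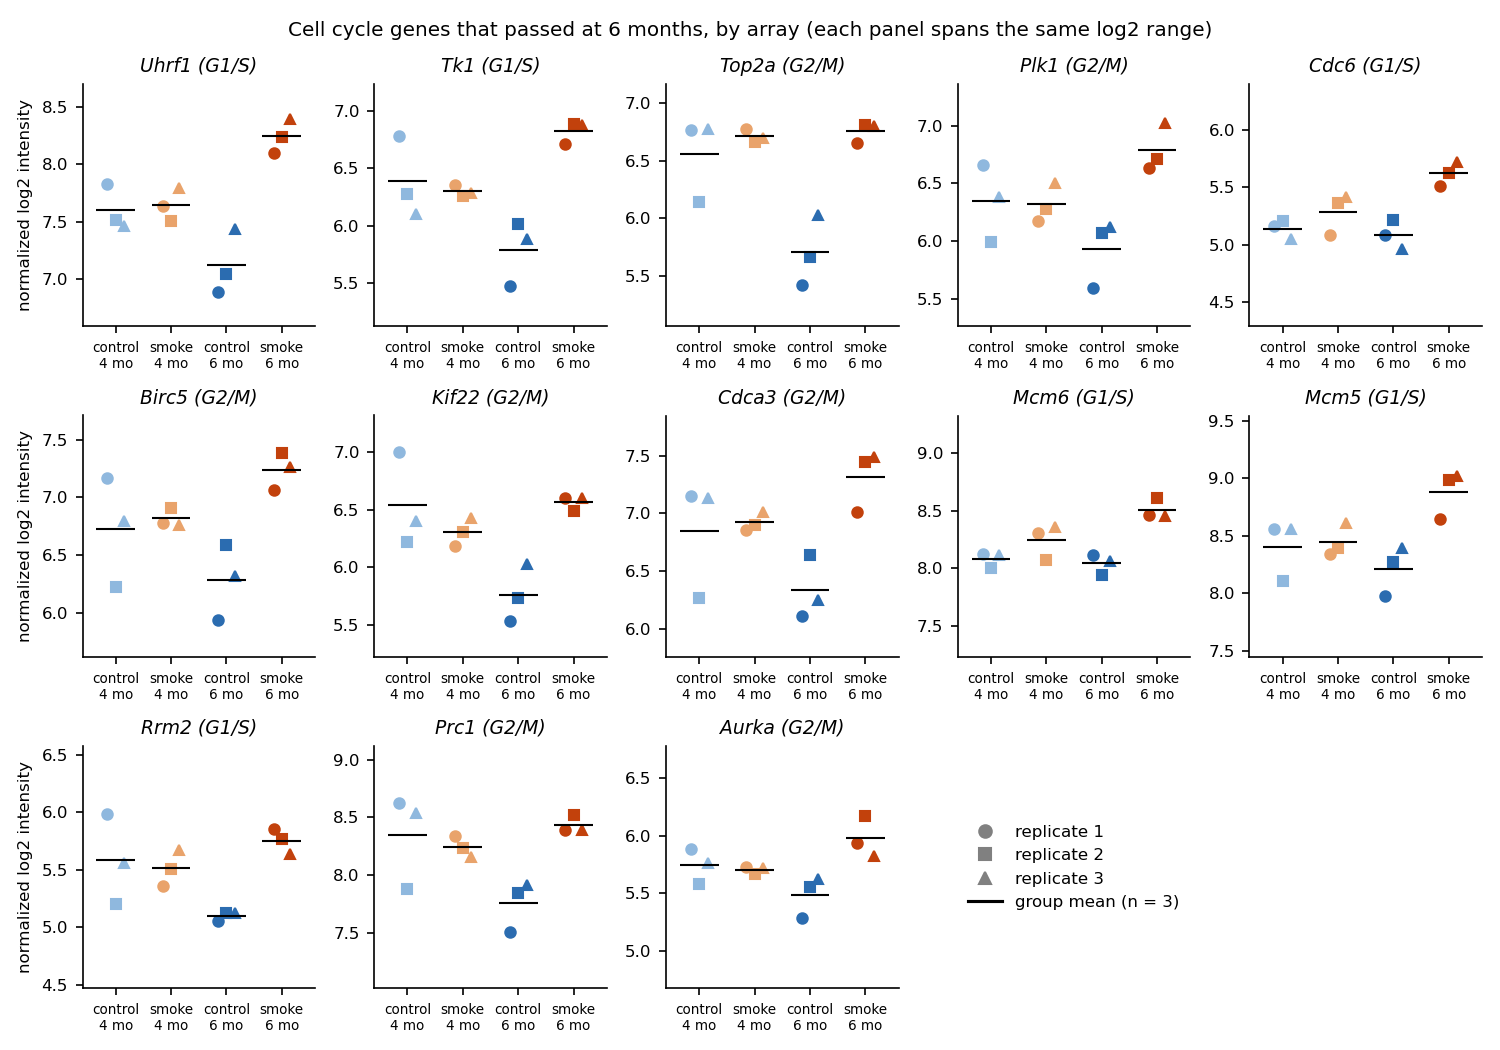
Log2 intensity (vertical axes, 1 panel a gene) of the 13 genes that passed at 6 months, with a point for each of the 3 arrays of a group and a bar at the group mean. At 6 months the 3 smoke arrays stand above the 3 control arrays in every panel, and at 4 months the groups overlap in every panel.

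Among genes of S phase chromatin, Uhrf1, which recognises hemimethylated DNA behind the replication fork and recruits the maintenance DNA methyltransferase, read 8.10, 8.24 and 8.39 on the smoke arrays of 6 months and 6.89, 7.05 and 7.44 on the control arrays. At 4 months it read 7.64, 7.51 and 7.79 with smoke and 7.82, 7.51 and 7.46 without. The groups were apart at 6 months, with the control arrays the lowest of the 12, and overlapped at 4 months. Uhrf1 rose by 1.12 on the log2 scale at 6 months (SE 0.15, 2.17-fold, limma adjusted p = 0.00110), and it passed whichever array was left out.

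Tk1, the salvage kinase that makes thymidine phosphate in S phase, read 6.71, 6.88 and 6.88 with smoke at 6 months and 5.47, 6.02 and 5.88 in the controls. Its 4-month values were 6.35, 6.26 and 6.29 with smoke and 6.78, 6.28 and 6.11 without. As for Uhrf1, the control arrays of 6 months were the lowest of the 12. The rise of Tk1 was 1.03 (SE 0.17, 2.05-fold, limma adjusted p = 0.00390). A dimmer probe of Tk1 went the other way by -0.28 (adjusted p = 0.425), and with the mean of both probes the change was 0.38 and did not pass (adjusted p = 0.169).

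Rrm2, the small subunit of ribonucleotide reductase, which makes deoxynucleotides, read 5.85, 5.77 and 5.64 with smoke at 6 months and 5.06, 5.12 and 5.12 in the controls. At 4 months the smoke arrays read 5.36, 5.51 and 5.67 and the controls 5.98, 5.20 and 5.56. The control arrays of 6 months lay below all other arrays. Rrm2 rose by 0.65 (SE 0.16, limma adjusted p = 0.0406), and the call held in 2 of 12 fits that left out 1 array, those without control replicate 1 or 2 of 4 months, with an adjusted p from 0.0106 to 0.123 over the 12. A dimmer probe of Rrm2, detected on 8 arrays, gave 0.55 and did not pass (limma adjusted p = 0.0595). The large subunit Rrm1, with a log2 difference of 0.27 (adjusted p = 0.241), and the thymidylate synthase Tyms, with 0.33 (adjusted p = 0.473), did not pass. A dimmer probe of Tyms went the other way, by -0.235 (adjusted p = 0.603).

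Of the 9 licensing and fork genes tested, 3 rose. Mcm5, a subunit of the replicative helicase, read 8.65, 8.99 and 9.02 with smoke and 7.97, 8.28 and 8.39 without at 6 months, and 8.34, 8.40 and 8.61 with smoke and 8.56, 8.11 and 8.56 without at 4 months. Mcm6, of the same ring, read 8.46, 8.61 and 8.46 with smoke and 8.12, 7.95 and 8.07 without at 6 months, and 8.31, 8.07 and 8.36 against 8.129, 8.002 and 8.118 at 4 months. For both subunits the 3 smoke arrays of 6 months were the highest of the 12. Mcm5 rose by 0.67 (SE 0.16, limma adjusted p = 0.0318) and Mcm6 by 0.47 (SE 0.11, adjusted p = 0.0265), while a pair of further Mcm6 probes gave 0.38 (adjusted p = 0.222) and 0.44 (adjusted p = 0.104).

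Cdc6, the ATPase that loads the helicase, read 5.51, 5.62 and 5.72 with smoke at 6 months and 5.09, 5.22 and 4.96 without, close to the bottom of the detected range. Its 4-month values were 5.09, 5.36 and 5.42 with smoke and 5.17, 5.20 and 5.05 without. Here too the smoke arrays of 6 months were the 3 highest of all. Cdc6 rose by 0.53 (SE 0.12, limma adjusted p = 0.0206). With 1 array left out, the adjusted p reached 0.131 for Mcm5, 0.111 for Mcm6 and 0.0995 for Cdc6, and each lost its call without smoke replicate 2 or 3 of 6 months. Among the controls of that age, the calls of Mcm5 and Cdc6 were lost without replicate 1, those of Mcm5 and Mcm6 without replicate 2, and those of Mcm6 and Cdc6 without replicate 3. Mcm5 was also lost without smoke replicate 2 of 4 months.

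The other licensing and fork genes did not pass. Mcm2, a helicase subunit, read 7.51, 7.29 and 7.44 with smoke at 6 months and 6.70, 6.80 and 7.34 without, and 7.24, 7.18 and 7.06 against 7.474, 7.076 and 7.004 at 4 months. Control replicate 3 of 6 months lay among the smoke arrays, and the log2 difference of 0.46 (SE 0.17, limma adjusted p = 0.163) missed the threshold. The log2 differences were 0.43 for Mcm3, 0.21 for Mcm4, 0.47 for Mcm7 and 0.32 for the loading factor Cdt1.

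Pcna, the sliding clamp of the replication fork, stood apart from its neighbours. Pcna read 6.40, 6.95 and 6.59 with smoke at 6 months and 6.86, 6.89 and 6.18 without, and the groups overlapped throughout. At 4 months it read 6.28, 6.64 and 6.75 with smoke and 5.63, 6.28 and 6.15 without, so that smoke replicate 1 read as high as control replicate 2 to the digits given. Its log2 difference was 0.00 at 6 months (95% interval -0.49 to 0.49, limma adjusted p = 0.997) and 0.54 at 4 months, where the unadjusted p was 0.0337 and the adjusted p 0.308. Ccne1, the cyclin that drives entry into S phase with CDK2, was dim. Its log2 difference was -0.13 at 6 months (adjusted p = 0.810), and at 4 months no control array detected it, so its level there is a bound.

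Among genes of chromosomes, spindle and division, 3 of 7 rose. Top2a, the topoisomerase that untangles sister chromosomes, read 6.65, 6.81 and 6.80 with smoke at 6 months and 5.42, 5.66 and 6.03 without. At 4 months the smoke arrays of Top2a read 6.78, 6.66 and 6.69 and the controls 6.76, 6.14 and 6.77. The smoke arrays of both ages lay within a narrow band, and the control arrays of 6 months were the 3 lowest of the 12. Top2a rose by 1.05 (SE 0.18, 2.07-fold, limma adjusted p = 0.00446) and passed whichever array was left out.

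Kif22, a chromosome-binding motor of the spindle, read 6.60, 6.49 and 6.61 with smoke and 5.53, 5.73 and 6.03 without at 6 months, and 6.18, 6.31 and 6.42 with smoke and 7.004, 6.224 and 6.399 without at 4 months. Prc1, which bundles the microtubules of the spindle midzone, read 8.39, 8.52 and 8.39 with smoke and 7.50, 7.84 and 7.91 without at 6 months, and 8.34, 8.23 and 8.15 against 8.63, 7.88 and 8.54 at 4 months. For both genes the highest of the 12 arrays was control replicate 1 of 4 months. Kif22 rose by 0.80 (SE 0.18, limma adjusted p = 0.0246) and Prc1 by 0.68 (SE 0.18, adjusted p = 0.0475). With 1 array left out the adjusted p reached 0.102 for Kif22, which held in 7 of 12 such fits, and 0.171 for Prc1, which held in 3 of 12. Kif22 was lost without smoke replicate 1, 2 or 3 or control replicate 1 or 2 of 6 months, and Prc1 without any smoke array of either age or any control array of 6 months.

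The other 4 genes of this kind did not pass. Nusap1, which stabilises spindle microtubules, had a log2 difference of 0.57 with no overlap of the groups (limma adjusted p = 0.123). The spindle motor Kif11 had 0.38 and the centromeric histone Cenpa 0.26. The microtubule destabiliser Stmn1, which many non-dividing cells also express, had -0.05 (95% interval -0.36 to 0.26).

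Of the 5 mitotic kinase, passenger complex and checkpoint genes, 3 rose. Plk1, the polo-like kinase of mitotic entry and spindle assembly, read 6.64, 6.71 and 7.03 with smoke at 6 months and 5.59, 6.07 and 6.12 without. The smoke arrays of 4 months read 6.17, 6.28 and 6.51 for Plk1 and the controls 6.66, 5.99 and 6.38. The 6-month groups were apart, with control replicate 1 the lowest of the 12. Plk1 rose by 0.87 (SE 0.19, limma adjusted p = 0.0197) and held in 9 of 12 fits that left out 1 array, with an adjusted p of up to 0.0954 when smoke replicate 2, smoke replicate 3 or control replicate 1 of 6 months was left out.

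Birc5, which encodes survivin of the chromosomal passenger complex, read 7.06, 7.38 and 7.26 with smoke and 5.94, 6.59 and 6.32 without at 6 months, and 6.78, 6.91 and 6.76 with smoke and 7.17, 6.22 and 6.79 without at 4 months. Aurka, the kinase of spindle poles, read 5.94, 6.17 and 5.82 with smoke and 5.28, 5.56 and 5.62 without at 6 months, and 5.73, 5.66 and 5.72 against 5.88, 5.58 and 5.76 at 4 months. In both genes the 3 control arrays of 4 months spanned more than the 3 smoke arrays of that age. Birc5 rose by 0.95 (SE 0.21, 1.94-fold, limma adjusted p = 0.0225), and its other probes gave 0.76 (adjusted p = 0.0895) and 0.79 (adjusted p = 0.173). Aurka rose by 0.49 (SE 0.13, adjusted p = 0.0476) at the edge of the threshold, and the call held in 1 of 12 fits that left out 1 array, the one without control replicate 2 of 4 months. Birc5 held in 8 of 12, lost without smoke replicate 2 or 3 or control replicate 1 or 3 of 6 months, and the adjusted p reached 0.0958 for Birc5 and 0.187 for Aurka. The checkpoint kinase Bub1b had a log2 difference of 0.41 (adjusted p = 0.216) and the passenger protein Cdca8 0.34 (adjusted p = 0.623).

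Cdca3, an adaptor that triggers entry into mitosis, read 7.01, 7.44 and 7.49 with smoke at 6 months and 6.11, 6.64 and 6.25 without. At 4 months Cdca3 read 6.85, 6.90 and 7.02 with smoke and 7.15, 6.27 and 7.13 without. The groups of 6 months were apart, and control replicate 2 of 4 months lay with the low arrays. Cdca3 rose by 0.98 (SE 0.22, 1.97-fold, limma adjusted p = 0.0251), and a further probe rose by 0.90 (adjusted p = 0.00551). Without smoke replicate 2 or 3 or control replicate 1 or 3 of 6 months the brightest probe lost the call, with an adjusted p of up to 0.107.

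Cdc20, the activator of the ubiquitin ligase of mitotic exit, and Cdk1, the kinase of mitotic entry, did not pass at 6 months although their groups did not overlap. Cdk1 read 6.62, 7.20 and 6.78 with smoke and 5.79, 6.25 and 6.05 without at 6 months, and 6.32, 6.35 and 6.32 against 6.36, 5.27 and 6.57 at 4 months. Control replicate 2 of 4 months was the lowest array for Cdk1, more than a log2 unit under the other controls of its age. The log2 difference of Cdk1 at 6 months was 0.83 (SE 0.27, limma adjusted p = 0.117). For Cdc20 it was 0.47 (adjusted p = 0.0761) on the brightest of 4 probes, and 0.52, 0.39 and -0.12 on the others.

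**Figure D2:**
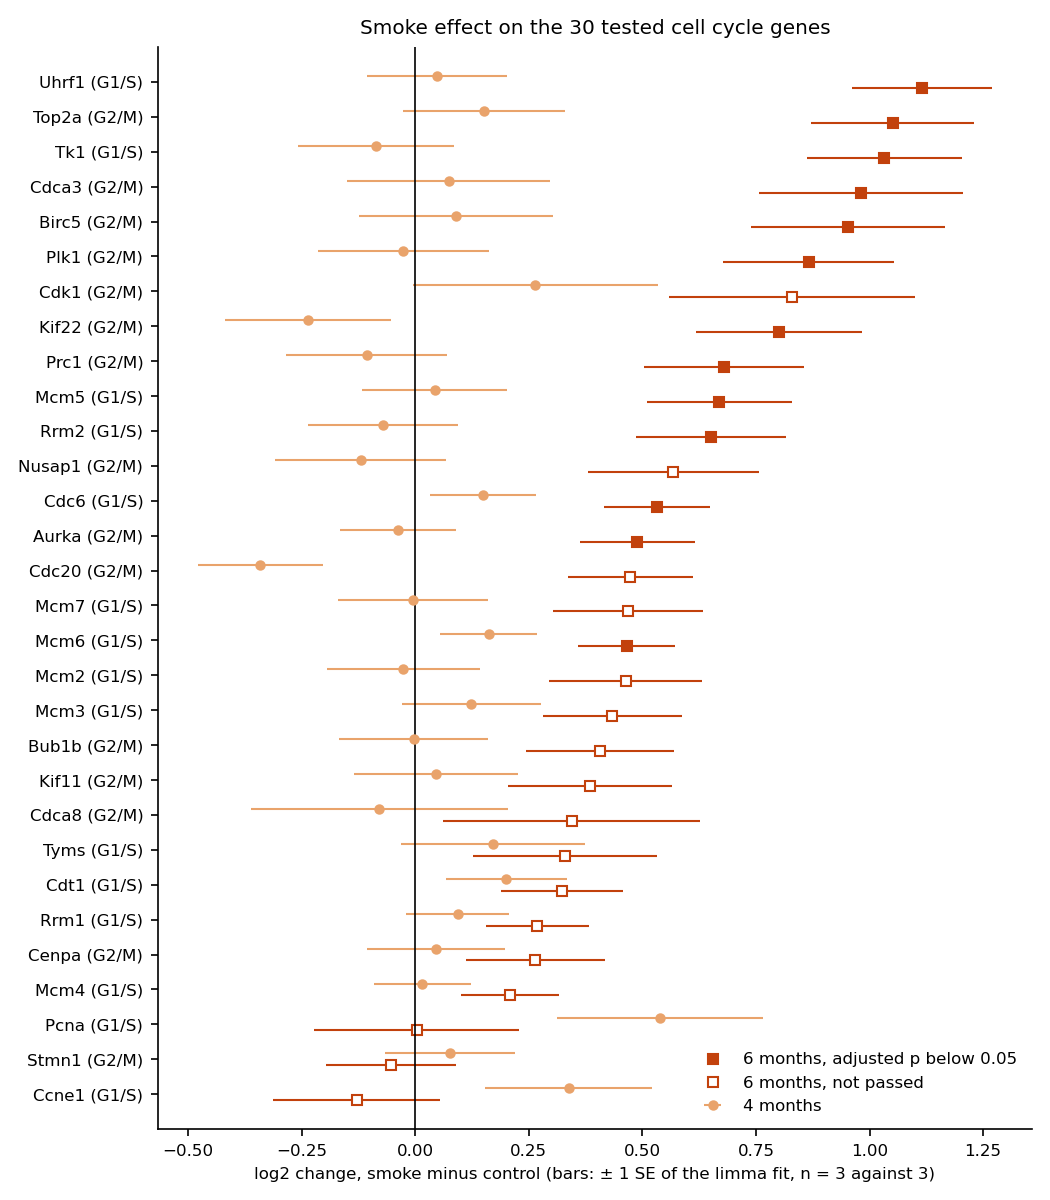
Log2 change, smoke minus control, of the 30 tested genes (rows) at 4 months (circles) and 6 months (squares, filled where the gene passed), with bars of 1 SE of the limma fit. At 6 months 13 genes passed and 28 lay above 0, and at 4 months 0 passed and the points lay on both sides of 0.

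At 4 months 0 of the 30 genes passed in either direction by limma's adjusted p, while 1.28% of all genes rose and 0.370% fell. At an unadjusted p below 0.05, Pcna was higher and Cdc20 lower (7.03% and 7.75% of all genes). The median log2 change of the 30 genes was 0.05, and that of all genes -0.03. Without control replicate 2 of this age the median was -0.10, and without smoke replicate 3 it was 0.00. Of the 30 genes, 18 lay above 0 (45.4% of all genes) and the changes ran from -0.34 for Cdc20 to 0.54 for Pcna. The groups did not overlap for 3 genes, Pcna and Ccne1 with the smoke arrays above and Cdc20 with the smoke arrays below (21.4% of all genes in either direction). Cdc20 read 7.22, 7.37 and 7.31 with smoke and 7.97, 7.40 and 7.55 without at this age, with an unadjusted p of 0.0280 and an adjusted p of 0.285, and 7.70, 7.61 and 7.48 against 7.01, 7.20 and 7.16 at 6 months.

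Passing at 6 months and not at 4 does not show that the effect differed, so the difference of both smoke effects was tested. None of the 30 genes passed that test, and 0.00% of all genes passed in either direction. At an unadjusted p below 0.05 the effect was larger at 6 months for 14 of the 30 genes and smaller for 0, against 4.43% and 3.86% of all genes. Uhrf1 had a difference of 1.07 (95% interval 0.59 to 1.54, limma adjusted p = 0.257), and Tk1 one of 1.12 (95% interval 0.59 to 1.64, adjusted p = 0.286). The same difference was 1.04 for Kif22 (adjusted p = 0.377), 0.90 for Top2a (adjusted p = 0.425) and 0.81 for Cdc20 (adjusted p = 0.367). Over the 30 genes the median difference was 0.48, and 27 of them lay above 0 (52.3% of all genes). In a fit that weighted each array by its fit to the group means, Uhrf1 (1.30, adjusted p = 0.0301) and Tk1 (1.32, adjusted p = 0.0428) passed, among 13 of all 10541 genes in either direction.

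The comparisons share arrays, since the control arrays of an age enter both its smoke effect and the change with age. Among control arrays, 0 of the 30 genes passed from 4 to 6 months (0.00949% of all genes rose and 0.0474% fell), and the median log2 change was -0.18, with -0.13 for the G1 and S phase genes and -0.36 for the G2 and mitosis genes. Of the 30, 5 lay above 0 (48.3% of all genes). At an unadjusted p below 0.05, 10 were lower at 6 months and 1 higher, Pcna, against 9.61% and 8.17% of all genes. In 7 genes, Rrm2, Tk1, Uhrf1, Bub1b, Cdc20, Top2a and Kif22, all control arrays of 6 months lay below all of 4 months (8.65% of all genes), and in 0 they lay above (8.06%). The largest of these differences was that of Top2a, -0.86 (limma adjusted p = 0.0851), followed by Kif22 with -0.78 (adjusted p = 0.0928). Leaving out 1 array moved the median of the 30 to between -0.34 (without control replicate 2 of 4 months) and -0.11 (without control replicate 1 of that age). Leaving out control replicate 2 of 4 months let 2 of the 30 pass as lower, while the calls over all 10541 genes, in either direction, went from 6 to 31. Leaving out control replicate 3 of that age let 3 pass, while the calls over all genes went to 575.

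Among smoke arrays, 0 of the 30 genes passed from 4 to 6 months, where 0.00% of all genes rose and 0.0190% fell. The log2 change was above 0 for 29 of them (51.9% of all genes), with a median of 0.26, and Ccne1 was the exception with -0.32. At an unadjusted p below 0.05, 8 were higher at 6 months and 0 lower, against 5.17% and 5.65% of all genes. In 14 genes all smoke arrays of 6 months lay above all of 4 months (11.5% of all genes), and in 0 below (10.8%). The smallest p was that of Uhrf1 (limma adjusted p = 0.239). Top2a had 0.04 here and -0.86 among the controls, while Uhrf1 had 0.60 and -0.47 and Tk1 0.52 and -0.60.

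**Figure D3:**
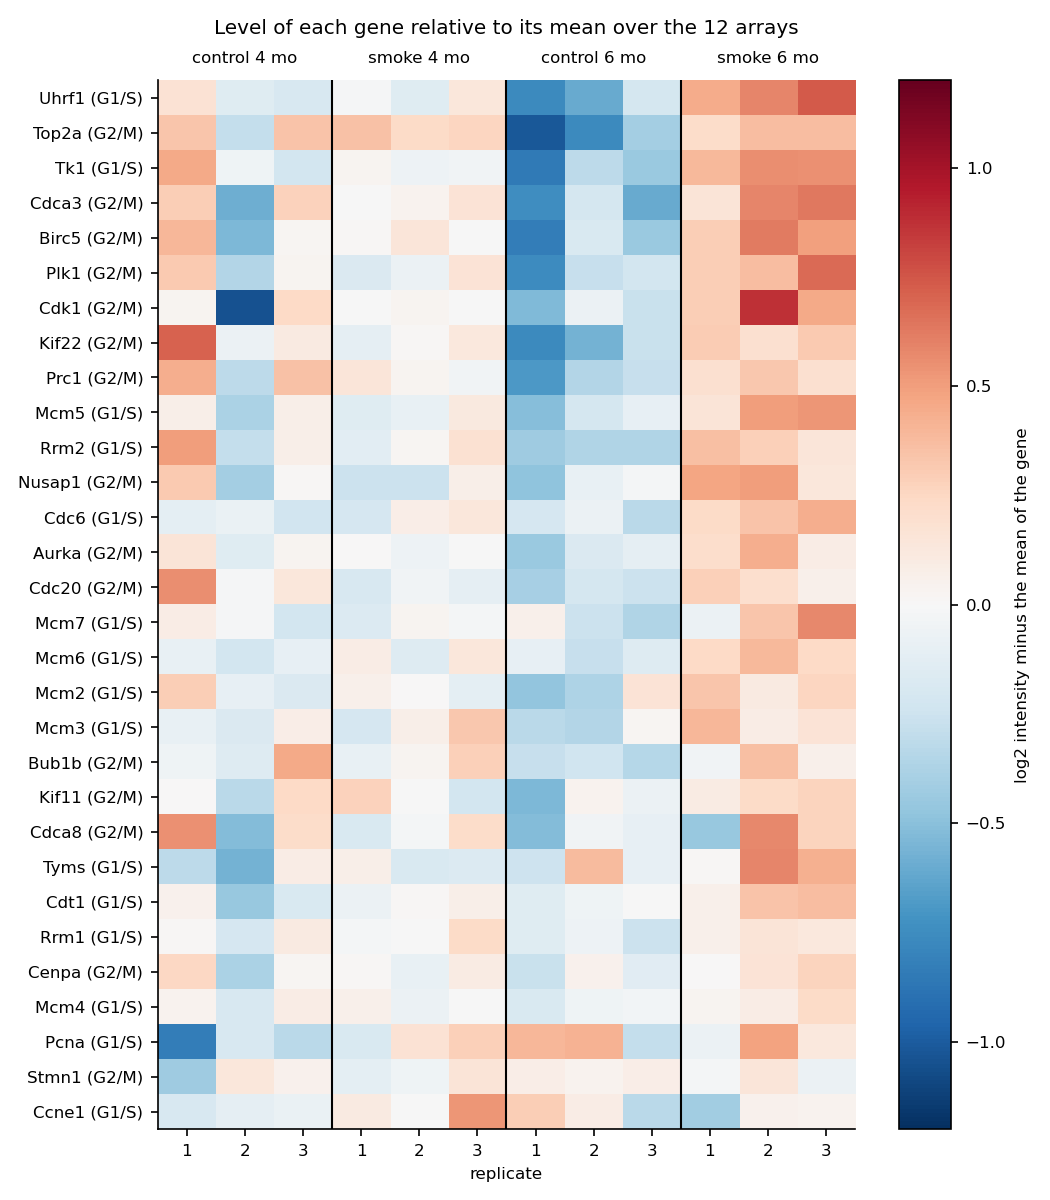
Deviation of each array (columns, by group) from the gene's own mean over the 12 arrays on the log2 scale (colour) for the 30 tested genes (rows, ordered by their smoke effect at 6 months). The smoke columns of 6 months are mostly high and the control columns of 6 months mostly low, and control replicate 2 of 4 months is low in most rows.

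Arrays of a group differed in these genes as a whole. Averaged over the 30 genes, the deviation from each gene's mean was 0.15, 0.36 and 0.31 on the smoke arrays of 6 months and -0.39, -0.17 and -0.21 on the controls of 6 months. At 4 months it was -0.03, -0.01 and 0.10 with smoke and 0.13, -0.27 and 0.04 without. By group these were 0.27 ± 0.11 and -0.26 ± 0.12 at 6 months and 0.02 ± 0.07 and -0.03 ± 0.21 at 4 months (SD, n = 3 arrays each). The controls of 4 months thus had the widest spread, and their replicates 1 and 2 lay farther apart in the G2 and mitosis genes (0.26 and -0.33) than in those of G1 and S phase (0.00 and -0.21). Control replicate 1 of 6 months was the lowest of all 12 arrays in 15 of the 30 genes, and smoke replicates 2 and 3 of 6 months were the highest in 10 and 9.

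Between 55.1% and 57.6% of probes were detected on an array, the median raw intensity lay between 18 and 28, and between 18.3% and 21.0% of raw values were below 0. The weights that limma gave the arrays ran from 0.422 for control replicate 3 of 4 months to 2.81 for smoke replicate 3 of 6 months. Control replicate 1 of 4 months stood apart in another way, since its summed intensity over 5 genes of bone marrow precursors was 18660, against 1267 and 1413 on the other controls of its age and 639 to 2471 on the arrays of the remaining groups. The part of this array's other cells in its high Kif22, Prc1 and Cdc20 levels was not tested.

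Genes of the same processes outside the list were read from further lists. Of 33 other replication genes, 6 rose at 6 months and 0 fell, against 3.35% and 1.73% of all genes, with a median log2 change of 0.15. Mcm10, which activates the helicase, rose by 0.95 (limma adjusted p = 0.00711). Chaf1b of the histone chaperone CAF-1 rose by 0.63 (adjusted p = 0.00836) and the checkpoint mediator Clspn by 0.78 (adjusted p = 0.00842), and the flap nuclease Fen1 and the ligase Lig1 passed too. The sixth, Pole, the catalytic subunit of the leading strand polymerase, was not above background on any control array of 6 months and was at least 1.42-fold higher with smoke (adjusted p = 0.00422). That bound sets each control array at the higher of the probe's own signal and the lowest signal of a detected probe. Clspn missed the threshold without smoke replicate 3 of 6 months (adjusted p = 0.0513). The calls of Fen1 and Lig1 were not examined with 1 array left out. Among 5 recombination and fork repair genes, 1 passed, the motor protein Rad54l, with 0.98 (adjusted p = 0.00188).

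Of 32 other mitosis genes, 6 rose and 1 fell at 6 months, against 3.35% and 1.73% of all genes. The median was 0.35 (0.34 with Dlgap5, not above background on the controls of 6 months, at its bound). The kinase Pbk rose by 1.01 (limma adjusted p = 0.00968), Gtse1, a microtubule protein of G2 and S phase, by 0.94 (adjusted p = 0.00842), the spindle protein Spag5 by 0.79 (adjusted p = 0.0141) and the chromatin phosphatase subunit Cdca2 by 0.74 (adjusted p = 0.0155), and Espl1, which is separase, and Kif2c completed the 6. Pttg1, which encodes securin, the inhibitor of separase, fell by 0.67 (adjusted p = 0.0406). The calls of Pttg1, Espl1 and Kif2c were not examined with 1 array left out. Gtse1 missed the threshold with the mean of its probes (0.38, adjusted p = 0.126) and without smoke replicate 3 of 6 months (adjusted p = 0.0508). Spag5 was lost without that array and without control replicate 1 of 6 months (up to 0.0691), and Cdca2 without smoke replicate 2 or 3 or control replicate 2 of 6 months (up to 0.0647).

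Genes that act upstream of the cycle were read as well. Of 20 transcription factors and G1 drivers, 0 passed at 6 months, where 3.35% of all genes rose and 1.73% fell. A count of 0 in a list of this size is close to that share. The median log2 change was 0.16. E2f1 had 0.17 (limma adjusted p = 0.802), Foxm1 0.15 (adjusted p = 0.741), Mybl2, which encodes B-MYB, 0.30 (adjusted p = 0.358), Ccnd1 0.18 (adjusted p = 0.455) and Myc -0.02 (adjusted p = 0.980), and E2f3 had the smallest p with 0.40 (adjusted p = 0.109). Of 15 cell cycle brakes 1 fell, Cdkn1a, which encodes the CDK inhibitor p21. Cdkn1a read 9.80, 10.04 and 9.95 with smoke and 10.31, 11.28 and 10.68 without at 6 months, and 10.25, 10.34 and 10.35 against 9.64, 10.13 and 10.24 at 4 months. At 6 months all smoke arrays were lower and at 4 months all were higher than the controls. Cdkn1a fell by 0.83 (SE 0.21, adjusted p = 0.0435), and the call held in 4 of 12 fits that left out 1 array, those without a control of 4 months or without control replicate 1 of 6 months (adjusted p from 0.0146 to 0.123 over the 12). Its difference between ages, -1.14, did not pass (adjusted p = 0.411), and 0 of 12 other p53 targets passed at either age. At 4 months 1.28% of all genes rose and 0.370% fell, so this count too is close to the share of all genes.

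**Figure D4:**
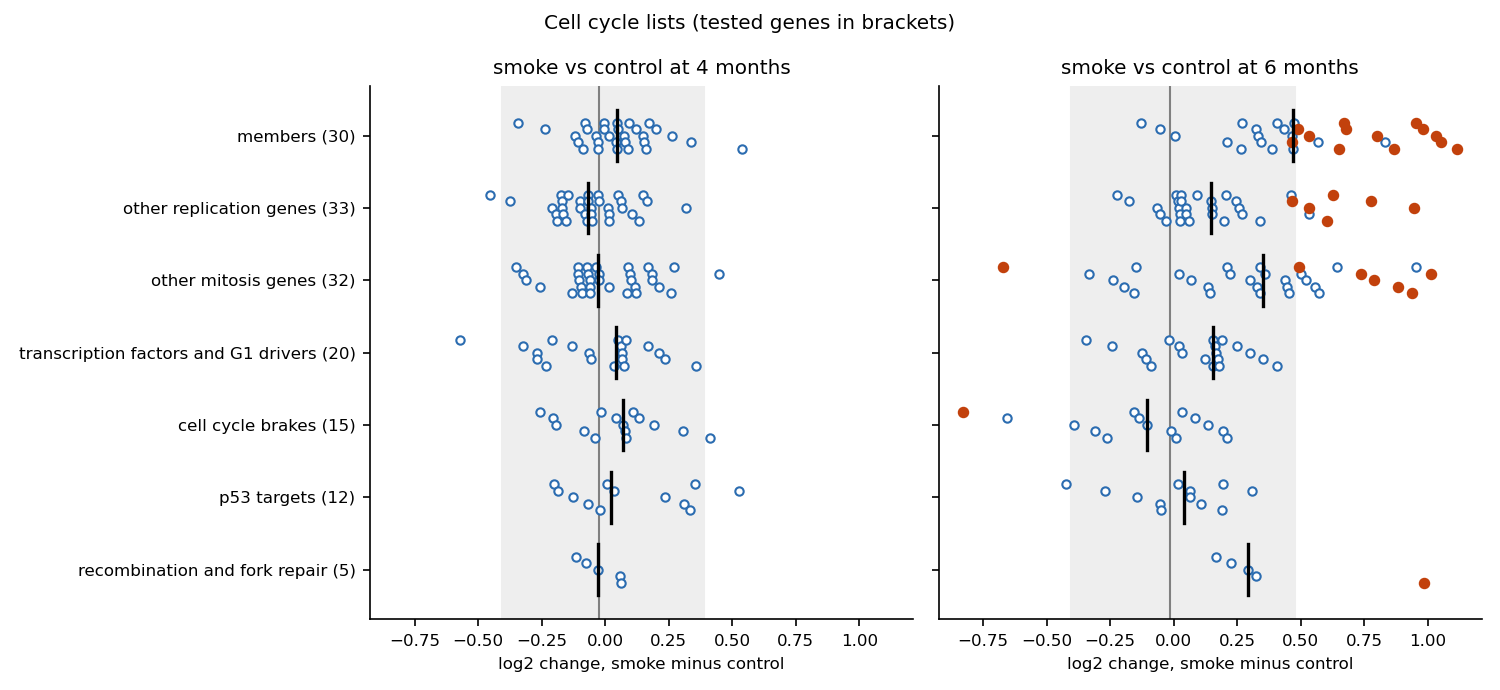
Log2 change, smoke minus control, of each tested gene (point) in the 30 genes and in 6 lists of the wider pathway at 4 months (left) and 6 months (right), with filled points for genes that passed, a black line at each list's median, and a grey band and line at the 5th to 95th percentile and the median of all tested genes. No point is filled at 4 months, and at 6 months filled points stand to the right in the replication, mitosis and repair lists and to the left for Pttg1 and Cdkn1a.

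Markers of other cells changed with smoke in the same tissue. Of 8 markers of monocytes and other macrophages, 6 rose at 4 months and 6 at 6 months, and of 8 alveolar macrophage markers 4 and 6 rose. The shares of all genes that rose were 1.28% and 3.35%. Trem2, a macrophage lipid receptor, rose by 2.58 at 4 months (limma adjusted p = 5.23e-06) and by 2.79 at 6 months (adjusted p = 1.81e-06), and the protease Ctsk by 2.75 (adjusted p = 5.23e-06) and 3.07 (adjusted p = 1.80e-06). The summed intensity of the monocyte and macrophage markers was 6899 to 8599 with smoke and 2652 to 4076 without at 4 months, and 6653 to 8984 and 2767 to 3363 at 6 months. That of the alveolar macrophage markers was 17501 to 21895 and 8482 to 11550 at 4 months, and 17724 to 22467 and 10083 to 11026 at 6 months. The part of macrophages in the cell cycle result was not tested.

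Plasma cell markers were read at both ages. Of 8 listed, Jchain and Prdm1 missed the detection filter. None of the 6 tested passed the test of the difference of both smoke effects, which 0.00% of all genes passed. Of the 6, 1 rose at 4 months and 2 rose at 6 months, against 1.28% and 3.35% of all genes. The median log2 change was -0.08 at 4 months and 1.00 at 6 months. At 6 months the second of them, Tnfrsf17, the plasma cell receptor BCMA, was not above background on any control array and was at least 2.36-fold higher with smoke (limma adjusted p = 0.0204). Tnfrsf17 missed the threshold without smoke replicate 2 or 3 or any 1 control of 6 months (adjusted p up to 0.0957). With it and Derl3 at their bounds the median was 0.95. Fkbp11, a chaperone of secretory cells, rose by 0.74 (limma adjusted p = 0.0159) and 1.21 (adjusted p = 0.000301). The summed intensity of the 6 was 1820, 3262 and 3581 on the smoke arrays of 6 months and 981 to 1547 on the controls, with smoke replicate 1 the lowest of the 3 as it was in the cell cycle genes. At 4 months it was 1150 to 1421 with smoke and 817 to 1864 without, with control replicate 2 the lowest. Both arrays were also the lowest of their groups in the sums of both macrophage lists, T cells, B cells, neutrophils and thymocytes. In the natural killer, germinal centre B, bone marrow precursor and alveolar type 2 sums only 1 of them was. In the red cell precursor, alveolar type 1, airway, endothelial and fibroblast sums neither array was the lowest. The part of plasma cells or their precursors in the cell cycle result was not tested.

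Other lymphoid and precursor markers did not pass in either direction at 6 months, except for Klrd1 of natural killer cells, which fell by 0.69 (limma adjusted p = 0.00555). None of 8 T cell, 7 B cell or 3 germinal centre B cell markers passed, nor any of 5 neutrophil, 5 bone marrow precursor, 3 red cell precursor and 2 thymocyte markers. Over all genes, 3.35% rose and 1.73% fell at 6 months, and 1.28% rose and 0.370% fell at 4 months. At 4 months 2 of 4 natural killer cell markers fell, Klrd1 by 0.61 (adjusted p = 0.0232) and Nkg7 by 0.65 (adjusted p = 0.0233), and so did 1 of 3 red cell precursor markers, Alas2, by 1.16 (adjusted p = 0.0275). The thymocyte genes Dntt, Rag1, Rag2 and Ccr9 and the precursor genes Mpo, Ctsg and Ms4a3 missed the detection filter. The T cell sum was 4046, 1429 and 3341 on the controls of 4 months, in the same order as the cell cycle genes of these arrays. That order also held for the B cell, plasma cell, monocyte and macrophage, neutrophil and bone marrow precursor sums. It did not hold for the alveolar macrophage, natural killer and germinal centre B cell sums. At 6 months the T cell sum was 2638 to 2997 with smoke and 2515 to 3431 without. Markers of alveolar type 2 (7 genes), alveolar type 1 (3 genes) and airway cells (2 genes) did not pass at either age. Of 5 endothelial markers Tek fell, by 0.53 (adjusted p = 0.0477), and of 6 fibroblast and mural markers Pdgfra fell, by 0.54 (adjusted p = 0.0451), both at 6 months. These calls held in 1 and 3 of 12 fits that left out 1 array, Tek without control replicate 2 of 6 months and Pdgfra without control replicate 1 or 2 of 4 months or control replicate 3 of 6 months, and the adjusted p reached 0.167 and 0.168.

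**Figure D5:**
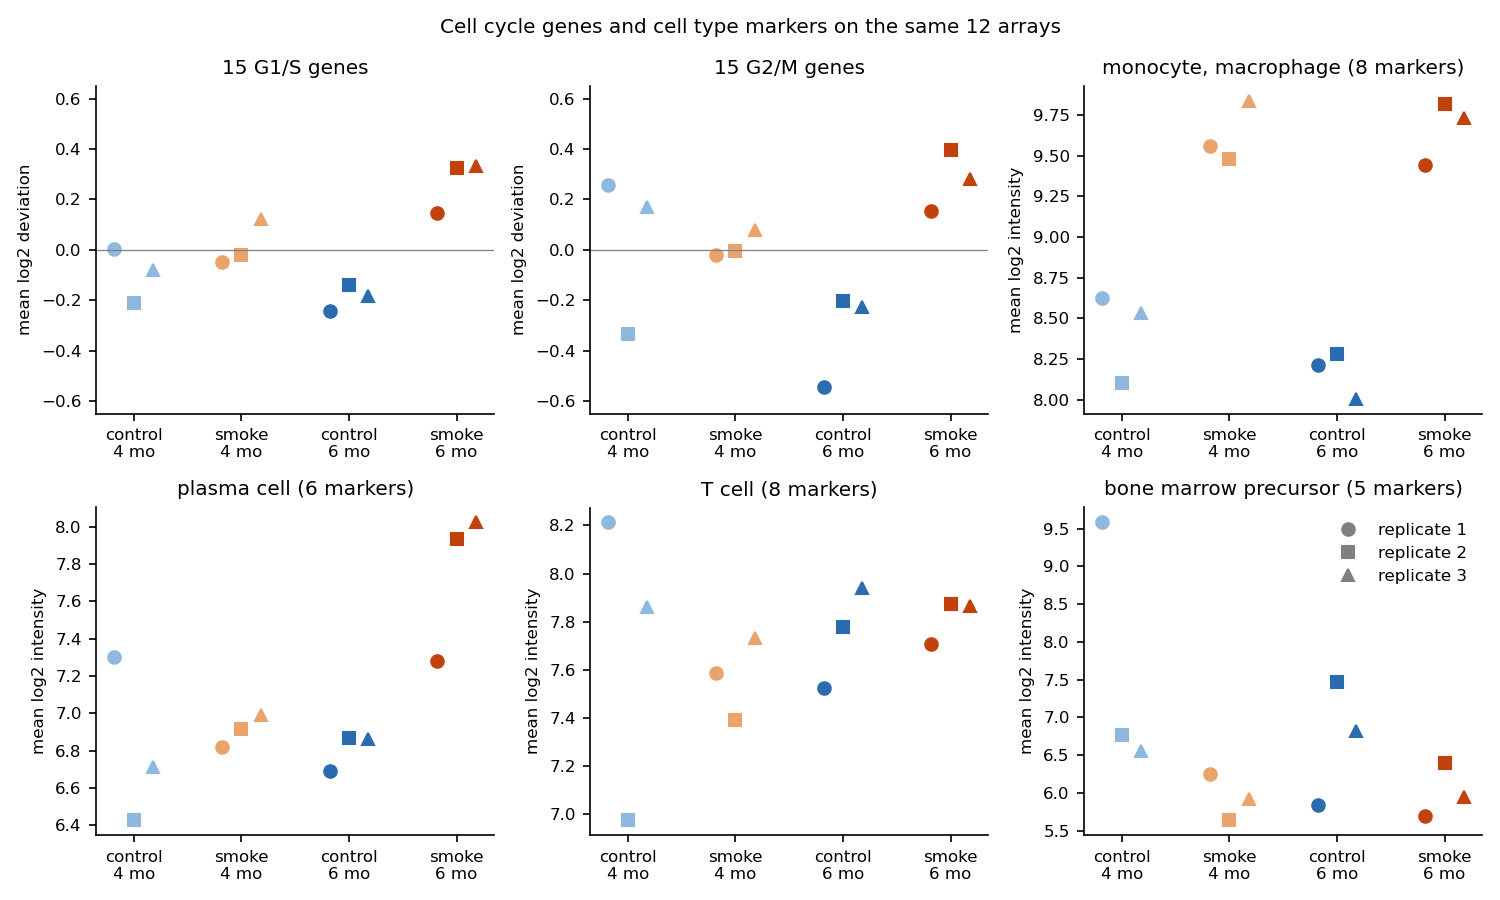
For each array (points, by group, shaped by replicate), the mean log2 deviation over the 15 G1 and S phase and the 15 G2 and mitosis genes, and the mean log2 intensity over 4 marker lists. The cell cycle genes and the plasma cell markers stand higher on the smoke arrays of 6 months than on the controls of that age, the macrophage markers on the smoke arrays of both ages, and control replicate 1 of 4 months stands apart in the bone marrow precursor panel.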

How the data were processed

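RNA of 12 mouse lungs was measured on Illumina bead arrays, and the sample titles gave the 4 groups of 3. The authors deposited, per the file headers, a non-normalized intensity and a detection p-value for every one of 25697 probes on each array. Some intensities were negative, so a background had already been subtracted, by a method not given in the sources used here. A second deposited table of normalized intensity served as an alternative.

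The work here began from the non-normalized table. It applied limma's neqc (normal-exponential correction from the detection p-values, offset 16, quantile normalization, log2). The offset understates changes where a probe is dim. The detection filter (p below 0.05, at least 3 arrays) left 15490 probes, and the brightest stood for its gene, with symbols from the platform annotation and RefSeq. A model with a mean for each of the 4 groups used all 12 arrays (limma 3.58.1 in R 4.3.3, lmFit and eBayes, 8 residual and 4.57 prior degrees of freedom). The two-sided p-values were adjusted by Benjamini-Hochberg over all kept probes. The code was tested on simulated data. Promoter windows are those of RefSeq's GRCm38.p6 table.

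The cell cycle genes and the further lists were chosen with earlier results of these data known, so their counts are descriptions beside the share of all genes. Values on every array are given for genes that passed at 6 months and for Pcna, Mcm2, Cdk1 and Top2a. Of each pathway list up to 4 genes with the smallest p are named, and of each marker list up to 3, besides E2f1, Foxm1, Mybl2, Ccnd1, Myc and Cdkn1a. The array values of Cdc20 and Cdkn1a, and the names Pttg1, Fen1, Lig1, Espl1 and Kif2c, were added after their values were seen. The labels and headers used here hold no slide or scan date, so no batch was tested. The labels call the samples biological replicates. Settings tried beside these are given with the limits at the end.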

Additional observations from a re-analysis of the deposited data

How the results depend on the processing

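Beside the fit reported, 13 other settings and 12 fits without 1 array each were run. The count of cell cycle genes higher at 6 months, 13, stayed between 9 and 13 over the 13 settings, which were the authors' normalized values, no normal-exponential correction, an offset of 50, 2 other scalings, 3 other detection filters, the mean of all probes, array weights, trended variance, the 6 arrays of one age alone and a replicate block. In the fit reported, 535 of all genes passed at 6 months in either direction. Over these settings that number ran from 362 (the 6 arrays alone) to 774 (array weights). Without 1 array the count of cell cycle genes ran from 3 to 15. The calls over all genes were 317 and 273 in the fits with 3, and 595 in the fit with 15. The median of the cell cycle genes at 6 months ran from 0.33 to 0.50 over the settings. With array weights 1 gene was lower at 4 months (Cdc20, -0.48, adjusted p = 0.0435), 2 had a larger smoke effect at 6 months, 4 were lower at 6 months among controls and 5 were higher at 6 months among smoke arrays, where the fit reported gave 0 for each. The calls over all 10541 genes, in either direction, rose too with these weights, from 174 to 654, from 0 to 13, from 6 to 176 and from 2 to 372 in the same order. Without 1 array the count lower among controls ran from 0 to 3. The median at 4 months, 0.05, was -0.03 with array weights and ran from -0.10 to 0.12 without 1 array. The cause of these shifts was not tested.

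The labels do not state that the replicate numbers pair the arrays. In their deviations from the group means, 1 of 18 same-numbered pairs correlated above 0.1 (-0.39 to 0.25). Of 36 differently numbered pairs, 7 did (-0.42 to 0.46). These correlations cannot exclude a pairing. With the replicate block 9 genes passed at 6 months, and Rrm2, Aurka, Birc5 and Prc1 were not among them. Of the 13, Uhrf1, Top2a, Plk1, Cdca3 and Kif22 passed in each of the 13 settings, Uhrf1 and Top2a also in each of the 12 fits without 1 array, and Aurka passed in 4 of 13 and Rrm2 in 8 of 13. A group of 3 arrays and dim probes limit what could be called, since several of these genes lie near the bottom of the detected range, where the offset shrinks changes.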
